A study of Mus musculus with 12 samples.

Results

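The oligoadenylate synthetase (OAS) family was examined in RNA of bulk mouse pylorus, the outlet of the stomach. Its members were the rows of the deposited count table with the symbols Oas1a, Oas1g, Oas1b, Oas1c, Oas2, Oas3, Oasl2 and Oasl1, which are 8 of 23420 rows. All 8 members passed the filter on low counts, which kept 15369 genes. There were 4 groups of 3 libraries, 12 libraries in all: CEA424-SV40 T Ag transgenic mice aged 60 days (D60SV), wild-type mice aged 60 days (D60WT), transgenic mice aged 80 days (D80SV) and wild-type mice aged 80 days (D80WT). The labels give the strain C57BL/6 for all 4 groups and name no treatment. In the transgenic line, a promoter stretch of the human carcinoembryonic antigen gene drives the T antigen of simian virus 40, and tumours form in the pylorus. The viral sequence was not analysed here. The labels do not say whether each library came from a separate animal, so the p-values measure only the spread between these libraries, which may be technical. In bulk RNA, fewer cells of a type and less RNA per cell cannot be told apart.

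OAS enzymes bind double-stranded RNA and then join ATP into short 2-5A chains, oligoadenylates with 2′-5′ links. These chains act as second messengers of the antiviral response. The genes belong to the set induced by interferons, for which an interferon-activated complex of transcription factors binds a short promoter element. In the mouse, Oas1a, Oas1g, Oas2, Oas3 and Oasl2 encode active synthetases, while Oas1b, Oas1c and Oasl1 encode proteins without that activity. A full-length Oas1b allele protects mice from flaviviruses, and common laboratory strains carry a stop codon in it. Oasl1 is known in mouse cells as a repressor of the translation of Irf7, the factor that amplifies interferon production.

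All 8 genes lie on mouse chromosome 5 in 2 clusters. In GENCODE M21 on GRCm38, the Oas cluster spans 191320 bases, from 120730333 to 120921652, and holds 10 genes of the family. From its low end it holds Oas2 (120730333 to 120749853, minus strand), Oas3 (120753098 to 120777661, minus strand), Oas1c (120800194 to 120812514, minus strand), Oas1b (120812635 to 120824163, plus strand, annotated as a polymorphic pseudogene), Oas1g (120876142 to 120887613, minus strand) and Oas1a (120896256 to 120907521, minus strand). The Oasl cluster holds Oasl2 (114896936 to 114912234) and Oasl1 (114923240 to 114937915), both on the plus strand. The other 4 Oas1 paralogues of the mouse cluster were close to silent in the pylorus, with 10 counts for Oas1d, 2 for Oas1e, 6 for Oas1f and 0 for Oas1h over the 12 libraries together.

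The sequences before the annotated starts are shown to set the interferon-response element, where it is present, beside the differences given below. They are RefSeq promoter windows on GRCm38.p6, in which 6 of the 8 members had an entry, and Oas1b and Oas2 had none. Each is printed 5′ to 3′ on the strand of its gene and ends just before the RefSeq start. Capitals mark every match to the core of the interferon-response element, read as GAAA and GAAA with any 2 bases between them and searched on both strands of the window from 250 bases before to 50 bases after the start.
Oas1a, chr5:120907526-120907605, minus strand: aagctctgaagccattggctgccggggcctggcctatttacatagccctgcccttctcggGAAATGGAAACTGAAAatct
Oas1g, chr5:120887614-120887693, minus strand: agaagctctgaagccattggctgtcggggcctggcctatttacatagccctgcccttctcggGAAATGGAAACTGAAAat
Oas3, chr5:120777660-120777759, minus strand: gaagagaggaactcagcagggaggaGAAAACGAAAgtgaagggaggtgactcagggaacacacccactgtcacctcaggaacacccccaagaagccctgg
Oas1c, chr5:120812515-120812634, minus strand: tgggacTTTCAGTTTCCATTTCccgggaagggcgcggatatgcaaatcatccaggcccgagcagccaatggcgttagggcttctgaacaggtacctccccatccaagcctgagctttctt
Oasl2, chr5:114896854-114896933, plus strand: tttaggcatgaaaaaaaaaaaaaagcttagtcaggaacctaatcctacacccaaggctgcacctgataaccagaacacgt
Oasl1, chr5:114923160-114923239, plus strand: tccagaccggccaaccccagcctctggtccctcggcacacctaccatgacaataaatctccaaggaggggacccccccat

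Oas1a and Oas1g each held 2 overlapping matches, which began at -20 and -14 from the start in Oas1a and at -18 and -12 in Oas1g. The 80 bases printed for these 2 genes share an identical run of 56 bases. Oas3 held 1 match at -75. The Oas1c window held 2 overlapping matches on the opposite strand at -114 and -108. Oas1c and Oas1b point away from each other with 120 bases between them, so these matches lie at -22 to -13 and -16 to -7 from the Oas1b start, on the Oas1b strand. No match was found in the windows of Oasl2 and Oasl1. Among all 32851 RefSeq promoter windows of this length, 3.44% held the core. The longer form, in which CT follows the core, was held by 0.27% of the windows, and by those of Oas1a, Oas1g and Oas1c. A match describes letters only and was not tested for binding, and no match says only that these letters are not in that window.

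Total counts ranged from 20121600 to 27633715 per library, and 3 counts, the floor used here, equalled 0.0901 to 0.185 CPM. CPM are counts scaled to a library total of 1e+06, here with TMM composition factors. Sex transcripts did not match across the groups: the 3 D60SV libraries held Xist and no Y-linked counts, the 3 D60WT libraries held Y-linked counts with at most 1 count of Xist, D80SV replicate 1 was of the Y-linked kind and its other 2 libraries held Xist, as did all 3 of D80WT. Genotype and sex cannot be told apart in the D60 comparison. The pylorus label was checked with mucous cell markers. The summed level of 5 surface mucous genes was 101500 to 128700 CPM in D60SV, 104900 to 188600 CPM in D60WT, 16110 to 29120 CPM in D80SV and 54240 to 137200 CPM in D80WT. Among the D80WT libraries, replicate 1 held the 54240 CPM, and the duodenal enterocyte list summed to 189 CPM in replicate 1, 1894 CPM in replicate 2 and 9474 CPM in replicate 3. Within D80WT, 6 members (Oas1a, Oas1b, Oas1g, Oas3, Oasl1 and Oasl2) were lowest in replicate 1 and highest in replicate 3. The T and NK cell list ran in that order too, at 2.235 CPM in replicate 1, 9.97 CPM in replicate 2 and 33.8 CPM in replicate 3. The part of tissue makeup in this order was not tested.

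At both ages the family was mostly higher in transgenic than in wild-type pylorus. At D60, 7 of 8 members were higher and 0 lower, while 3.66% of all tested genes were higher (562 of 15369) and 0.241% lower. At D80, 6 of 8 members were higher and 0 lower, while 19.4% of all genes were higher (2974) and 22% lower (3380). The balance over all genes at D80 depended on the scaling, with 3571 genes higher and 2093 lower under upper-quartile factors and 5104 higher and 1001 lower with no composition factor. The median log2 fold change of the 8 members was 2.87 at D60 and 1.22 at D80, and that of all genes was 0 and -0.07. In both comparisons the libraries of the 2 groups did not overlap for 7 of 8 members, all higher in transgenic libraries. Among all genes, 12.2% were higher without overlap at D60 and 24.4% at D80. Calls rest on edgeR's quasi-likelihood test with Benjamini-Hochberg adjustment over all 15369 genes at a threshold of 0.05.

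**Figure D1:**
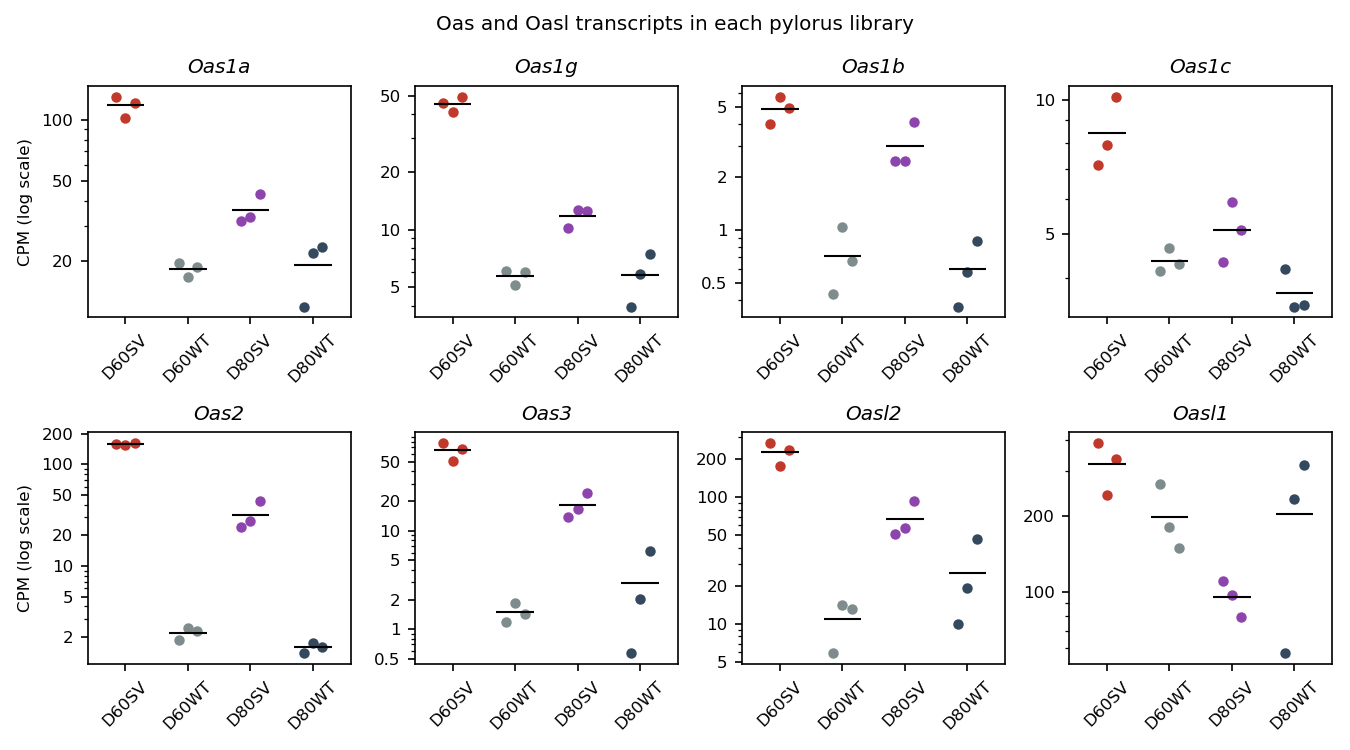
Expression of the 8 family members in each library, in CPM on a log scale with its own range in each panel; points are libraries, lines are means of 3. Oas2 shows the clearest separation, at 154 to 162 CPM in D60SV against 1.85 to 2.45 CPM in D60WT, whereas the D60SV and D60WT points of Oasl1 overlap.

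Per kilobase of exon, the scale on which levels of different genes can be compared, Oasl1 was the most abundant member in all 4 groups. In D60SV its level was 124 ± 28.7 CPM per kilobase (SD, n = 3), and Oas1a followed at 62.7 ± 7.83. Oasl2 at 35.7 ± 7.30 and Oas2 at 35.4 ± 0.794 CPM per kilobase came next, with overlapping libraries. Below them, each without overlap with its neighbour, were Oas1g at 19.4 ± 1.83, Oas3 at 9.25 ± 1.86, Oas1c at 3.50 ± 0.652 and Oas1b at 2.46 ± 0.444 CPM per kilobase. In D60WT, Oasl1 stood at 76.1 ± 23.5 CPM per kilobase and Oas1a at 9.77 ± 0.758, and no other member was above 2.45. Oas2, with rank 4 in D60SV, had rank 6 in D60WT at 0.493 CPM per kilobase. In D80SV the order of the means was the same as in D60SV, with 36.6 ± 5.91 CPM per kilobase for Oasl1 and 1.52 ± 0.480 for Oas1b. Libraries overlapped there between Oasl2 and Oas2 and between neighbours from Oas3 to Oas1b. In D80WT, Oasl1 stood at 77.9 ± 51.2 CPM per kilobase, and the libraries of most neighbours below it overlapped. With the length of the longest transcript in place of all exons, Oasl2 stood above Oas1a in D60SV, at 72.8 ± 14.9 against 62.7 ± 7.83 CPM per kilobase, with overlapping libraries. The levels and ranks of Oas1a and Oas1g are uncertain, since their transcripts share sequence, as given below.

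The share of the family's summed CPM held by Oasl1 differed between genotypes. Oasl1 made up 30.9% to 36.0% of the family's CPM in D60SV and 76.2% to 87.2% in D60WT. It made up 26.0% to 44.4% in D80SV and 63.8% to 81.0% in D80WT. The 7 other members summed to 540 to 691 CPM in D60SV libraries and 39.1 to 46.6 CPM in D60WT libraries. They summed to 138 to 226 CPM in D80SV libraries and 32.3 to 90.5 CPM in D80WT libraries, so the groups did not overlap at either age.

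The Oas1 members were led by Oas1a, an active 2-5A synthetase. Oas1a had 131, 102 and 122 CPM in D60SV libraries, against 19.6, 16.8 and 18.9 CPM in D60WT libraries. The lowest transgenic library lay far above the highest wild-type one. The log2 fold change at D60 was 2.68 (SE 0.24, adjusted p = 4.54e-05), a 6.42-fold difference. At D80, Oas1a had 31.6, 33.2 and 43.1 CPM in D80SV libraries, against 11.9, 22.1 and 23.7 CPM in D80WT libraries. The groups were closer but still did not overlap, and the log2 fold change was 0.90 (SE 0.22, adjusted p = 0.00776).

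Oas1g, the other active Oas1 enzyme, had 45.7, 41.1 and 49.6 CPM in D60SV libraries, against 6.05, 5.14 and 6.00 CPM in D60WT libraries. At D80 it had 10.2, 12.7 and 12.5 CPM in D80SV libraries, against 3.94, 5.87 and 7.45 CPM in D80WT libraries. No transgenic library overlapped a wild-type one at either age. Its log2 fold change was 2.99 at D60 (SE 0.21, adjusted p = 1.53e-05) and 1.04 at D80 (SE 0.20, adjusted p = 0.00213). Oas1a and Oas1g share much of their transcript sequence. Windows of transcripts were compared only among the Oas and Oasl genes. Of the 50-base windows, 57.6% in Oas1a transcripts and 45.7% in Oas1g transcripts occur in another gene of the family, mostly in each other. Of the 100-base windows, 40.9% and 31.3% do. Whether the counting kept reads that match both, and how it split them, is not given in the sources used here. Their separate levels are therefore uncertain, and their sum may be too low. Their sum was 143 to 177 CPM in D60SV and 22.0 to 25.6 CPM in D60WT, and 41.8 to 55.6 CPM in D80SV against 15.9 to 31.1 CPM in D80WT.

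Oas1b had the lowest mean level per kilobase of the members in D60SV, D80SV and D80WT, and its libraries overlapped with those of its neighbour in both D80 groups. Its transcripts share 1.17% of 50-base windows with another gene of the family. It had 3.99, 5.75 and 4.98 CPM in D60SV libraries, against 0.432, 1.04 and 0.666 CPM in D60WT libraries, which rest on 7 to 22 counts. At D80 it had 2.46, 2.47 and 4.12 CPM in D80SV libraries, against 0.366, 0.574 and 0.867 CPM in D80WT libraries. Every transgenic library was above every wild-type library of its age. The log2 fold change was 2.76 at D60 (SE 0.39, adjusted p = 0.00146) and 2.32 at D80 (SE 0.39, adjusted p = 0.000881).

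Oas1c moved least among the called members. It had 7.16, 7.92 and 10.2 CPM in D60SV libraries, against 4.14, 4.66 and 4.28 CPM in D60WT libraries. The groups did not overlap, and the log2 fold change was 0.95 (SE 0.20, adjusted p = 0.0187). The call was lost without D60WT replicate 1 (adjusted p = 0.074), D60WT replicate 3 (adjusted p = 0.087) or D60SV replicate 3 (adjusted p = 0.10). At D80 it had 4.33, 5.90 and 5.11 CPM in D80SV libraries, against 4.19, 3.44 and 3.47 CPM in D80WT libraries. These groups were set apart by a narrow margin, and the log2 fold change of 0.47 (95% interval 0.03 to 0.90) did not pass the adjusted test (adjusted p = 0.0793). It did with upper-quartile factors (0.62, adjusted p = 0.039), with no composition factor (0.88, adjusted p = 0.015) and with DESeq2 (0.50, adjusted p = 0.044). In Oas1c, 9.83% of 50-base windows occur in another gene of the family, mostly Oas1e, and none of the 100-base windows do.

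Oas2, an active synthetase, had the smallest p-value of all 15369 genes in the D60 comparison. It had 157, 154 and 162 CPM in D60SV libraries, against 1.85, 2.45 and 2.29 CPM in D60WT libraries. The transgenic libraries were close to each other, and the wild-type libraries held 30 to 52 counts each. The log2 fold change was 6.16 (SE 0.24, adjusted p = 2.1e-07), a 71.3-fold difference. At D80, Oas2 had 24.4, 27.7 and 43.7 CPM in D80SV libraries, against 1.38, 1.77 and 1.60 CPM in D80WT libraries. The groups were far apart again, with a log2 fold change of 4.33 (SE 0.23, adjusted p = 2.88e-07), a 20.1-fold difference.

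Oas3, the largest of the synthetases, had 77.7, 51.5 and 66.9 CPM in D60SV libraries, against 1.17, 1.84 and 1.43 CPM in D60WT libraries. The groups were far apart, with a log2 fold change of 5.45 (SE 0.64, adjusted p = 0.000357). At D80 it had 13.7, 16.7 and 24.4 CPM in D80SV libraries, against 0.569, 2.03 and 6.15 CPM in D80WT libraries. The wild-type libraries differed widely among themselves but stayed below the transgenic ones, and the log2 fold change was 2.65 (SE 0.56, adjusted p = 0.00338). Neither Oas2 nor Oas3 shared any 50-base window with another gene of the family, and genes outside the family were not compared.

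Oasl2, which carries ubiquitin-like domains behind its synthetase part, had 269, 177 and 236 CPM in D60SV libraries, against 5.87, 14.2 and 13.0 CPM in D60WT libraries. The groups did not overlap, and the log2 fold change was 4.36 (SE 0.55, adjusted p = 0.00059), a 20.5-fold difference. At D80, Oasl2 had 51.1, 57.6 and 93.3 CPM in D80SV libraries, against 9.96, 19.2 and 47.3 CPM in D80WT libraries. The highest wild-type library came close to the lowest transgenic one, and the log2 fold change was 1.40 (SE 0.49, adjusted p = 0.0373). This call was lost without D80WT replicate 1 (1.02, adjusted p = 0.068), D80WT replicate 2 (adjusted p = 0.12), D80SV replicate 2 (adjusted p = 0.061), D80SV replicate 3 (adjusted p = 0.13) or D60SV replicate 3 (adjusted p = 0.051), and when the fit held D80SV and D80WT alone (adjusted p = 0.082).

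Oasl1, its neighbour in the same cluster, did not pass the test in either genotype comparison. It had 389, 242 and 336 CPM in D60SV libraries, against 267, 180 and 149 CPM in D60WT libraries. The lowest transgenic library lay below the highest wild-type one, and the log2 fold change was 0.70 (95% interval -0.31 to 1.71, adjusted p = 0.558). At D80 it had 110, 97.1 and 79.3 CPM in D80SV libraries, against 56.9, 234 and 318 CPM in D80WT libraries. The transgenic libraries lay between D80WT replicate 1 and the other 2 wild-type libraries, and the log2 fold change was -1.09 (95% interval -2.11 to -0.07, adjusted p = 0.0805). Without D80WT replicate 1, Oasl1 was lower in D80SV than in D80WT (-1.53, adjusted p = 0.00081), and with DESeq2 it was lower with all libraries (-1.06, adjusted p = 0.043). D80WT replicate 1 also had the lowest surface mucous sum of the 6 wild-type libraries, and the part of tissue makeup in this result was not tested.

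**Figure D2:**
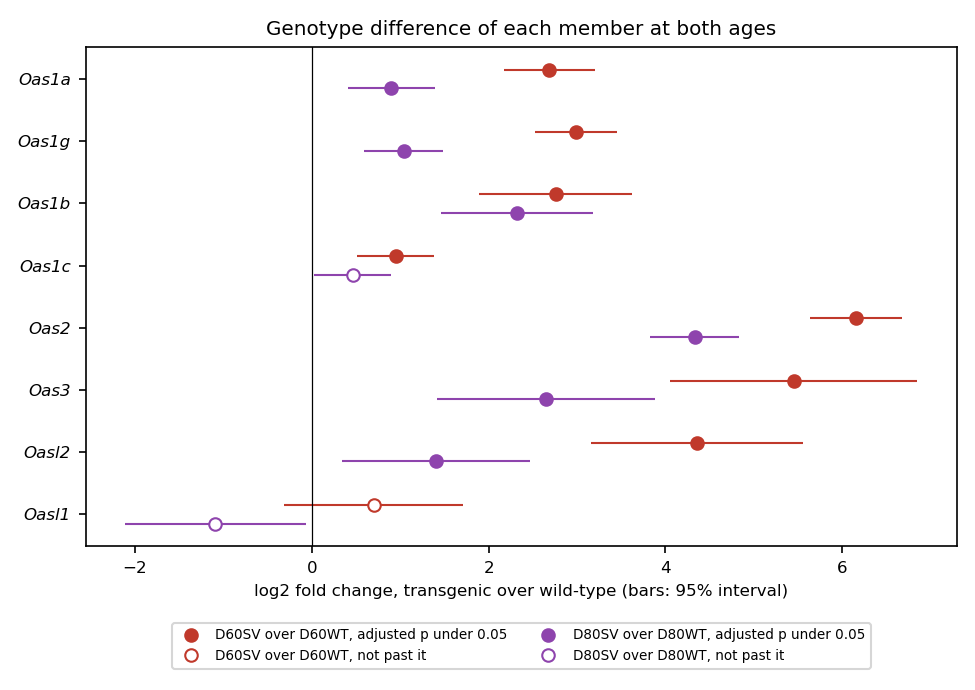
Log2 fold change of transgenic over wild-type pylorus for each member, with 95% intervals, at D60 and at D80; filled points passed an adjusted p of 0.05. The D60 value lies right of the D80 value for every member, from 6.16 against 4.33 for Oas2 to 0.70 against -1.09 for Oasl1.

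Between the 2 ages, the family fell in transgenic pylorus. In D80SV against D60SV, 0 members were higher and 7 of 8 lower, while 17.7% of all genes were higher (2725) and 18% lower (2765). With no composition factor, 5154 of all genes were higher and 1098 lower. The median log2 fold change of the members was -1.76, and that of all genes was 0.02. Oas2 fell by 2.30 (adjusted p = 6.87e-05), and its D80SV mean was 20.2% of its D60SV mean. Oas1g fell by 1.95 (adjusted p = 0.000142), Oas1a fell by 1.72 (adjusted p = 0.000381), and Oas3 fell by 1.84 (adjusted p = 0.0179) on the same log2 scale. Oasl1 fell by 1.76 (adjusted p = 0.0144) and Oasl2 fell by 1.75 (adjusted p = 0.0164), so that both Oasl means stood at 29.6% of their D60SV level. Oas1c fell by 0.72 (adjusted p = 0.0147), and Oas1b, at -0.70, did not pass the test (adjusted p = 0.137) and overlapped between ages. The Oas1b mean in D80SV was 61.5% of that in D60SV, and the Oas1c mean was 60.8%.

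The smaller age calls depended on single libraries. Oas3 was no longer called without D60SV replicate 1 (adjusted p = 0.057), D80SV replicate 1 (adjusted p = 0.063) or D80SV replicate 2 (adjusted p = 0.067). Oasl2 was lost without the same 3 libraries, at adjusted p = 0.051, 0.057 and 0.065. Oasl1 was lost without D80SV replicate 3 (adjusted p = 0.061). Oas1c was lost without D60SV replicate 3, D80SV replicate 1 or D80SV replicate 3 (adjusted p = 0.054 to 0.076), and with no composition factor (-0.35, adjusted p = 0.25). With sex as a covariate, 3 of the 7 calls were lost, those of Oas1c (-0.61, adjusted p = 0.056), Oas3 (-1.67, adjusted p = 0.063) and Oasl2 (-1.59, adjusted p = 0.057). D80SV replicate 1 is the only transgenic library of the Y-linked kind, so here the covariate acts like leaving that library out. It gave the same values for Oas3 and Oasl2 and is not a separate check.

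In wild-type pylorus no age difference was called. Of the 8 members 0 passed in D80WT against D60WT, and 0% of all genes did. The D60WT libraries were all of the Y-linked kind and the D80WT libraries all held Xist, so that age and sex cannot be told apart here. The count over all genes was 402 without D80WT replicate 1. At an unadjusted p under 0.05 there was 1 member, Oasl2, at a log2 fold change of 1.20 (adjusted p = 0.358). Oas2 was at -0.48 (adjusted p = 0.435), with every D80WT library below every D60WT library. The median of the members was 0.02, and that of all genes was 0.04. DESeq2 called 254 genes in this comparison, and no member was among them.

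The genotype difference itself was compared between ages with an interaction term, in which a negative value is a smaller transgenic excess at D80. Genotype and sex transcripts coincide at D60 but not at D80, so age and sex cannot be told apart in this term. Of the 8 members 0 were higher and 4 lower, while 2.77% of all genes were higher (425) and 2.23% lower (343). Over all genes, 477 were higher and 252 lower under upper-quartile factors, and 520 higher and 136 lower with no composition factor. Oas1g had -1.95 (adjusted p = 0.00746), Oas2 -1.82 (adjusted p = 0.0109), Oas1a -1.78 (adjusted p = 0.0129) and Oasl2 -2.95 (adjusted p = 0.0355). Oas2 missed the threshold with limma-voom (adjusted p = 0.065), and Oasl2 missed it with limma-voom (adjusted p = 0.062) and with no composition factor (adjusted p = 0.055). The Oasl2 call was lost when any 1 of 10 libraries was left out, at adjusted p = 0.051 to 0.11, the exceptions being D80WT replicate 1 and D60SV replicate 2. Oas3 at -2.80 (adjusted p = 0.0662), Oasl1 at -1.79 (adjusted p = 0.128), Oas1c at -0.48 (adjusted p = 0.333) and Oas1b at -0.43 (adjusted p = 0.69) were not called. Without D80WT replicate 1, Oas3 (-3.29, adjusted p = 0.0044) and Oasl1 (-2.23, adjusted p = 0.0039) passed too, and Oas3 also passed with DESeq2 (-2.77, adjusted p = 0.036).

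Since the D60 groups differed in sex transcripts, D60SV was also set against D80WT, whose 3 libraries hold Xist like those of D60SV. This comparison shares D60SV with the D60 comparison and D80WT with the D80 comparison, and it mixes age with genotype. Of the 8 members 7 were higher and 0 lower, while 2.86% of all genes were higher and 0.254% lower. The log2 fold change was 6.64 for Oas2, 4.49 for Oas3, 3.16 for Oasl2, 3.02 for Oas1b, 2.98 for Oas1g, 2.62 for Oas1a and 1.18 for Oas1c, and Oasl1 at 0.67 did not pass (adjusted p = 0.615). With sex as a covariate in the fit of all libraries, 3 members stayed called at D60, Oas1a, Oas1g and Oas2, and the D60 values of Oas3 (4.87, adjusted p = 0.067), Oasl2 (3.79, adjusted p = 0.13), Oas1b (2.33, adjusted p = 0.30) and Oas1c (0.60, adjusted p = 1) did not pass. The interaction then had 0 members called. Within a group, sex transcripts differed only in D80SV, where replicate 1 alone was of the Y-linked kind. The sex covariate therefore rests on that 1 library and cannot settle the part of sex in the D60 comparison.

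**Figure D3:**
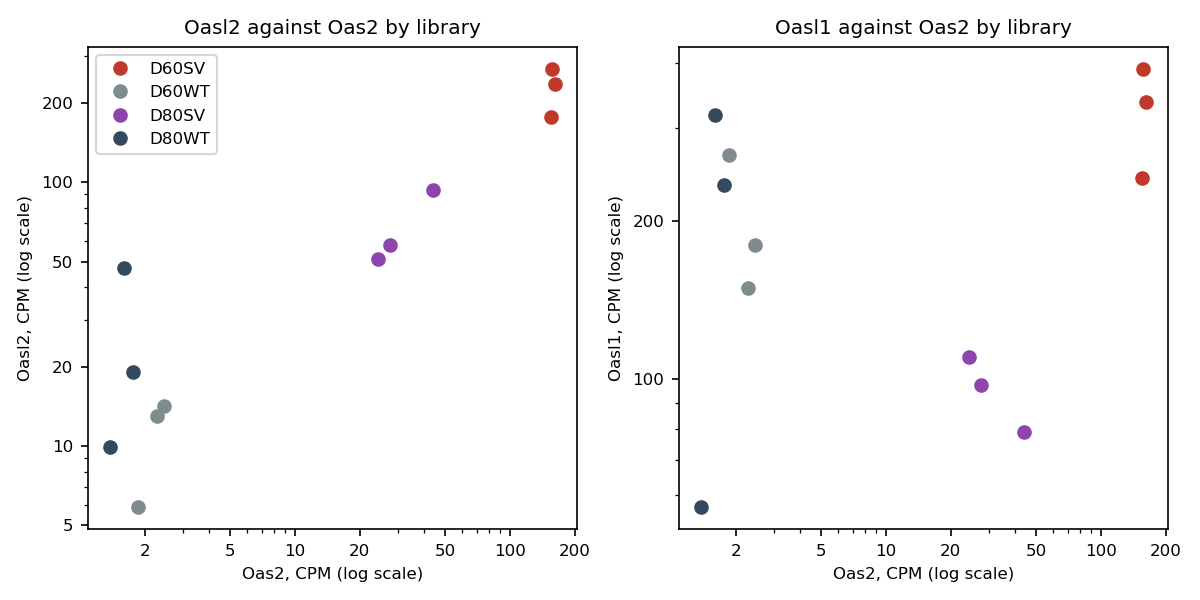
CPM of Oasl2 (left) and Oasl1 (right) against Oas2 in the 12 libraries, both axes on a log scale, coloured by group. Oasl2 is high where Oas2 is high, whereas the Oasl1 values of D60WT, at 149 to 267 CPM, lie above those of D80SV, at 79.3 to 110 CPM, although Oas2 is lower in D60WT.

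Over the 12 libraries, the log2 CPM of 7 members rose and fell together and Oasl1 stood apart. Pearson's r ran from 0.776 to 0.994 among the other 7 members and from 0.177 to 0.503 between Oasl1 and each of them, as a description over libraries that share genotype and age. The genes outside the family most like each member were taken by Pearson's r over the same 12 libraries. For Oas3 they were Usp18 (r = 0.996), Irf7 (r = 0.994), Rtp4, Dhx58 and Apol9b. For Oas2 they were Bst2 (r = 0.981), Usp18 (r = 0.970), Ifi27l1, Rtp4 and Phf11d. For Oasl2 they were Apol9b and Xaf1 (r = 0.992 each), Parp9, Tap1 and Zbp1. Among the 5 closest to Oas1a were Stat2, Xaf1, Gbp3 and Apol9b (r = 0.957 to 0.964), and Oas1g had Xaf1, Stat2, Gbp3, Apol9b and Isg15. For Oas1b they were I830012O16Rik, Phf11d, Usp18, Irf7 and Ifit3 (r = 0.963 to 0.971), and for Oas1c Ifi27l1, Bst2, Irgm1, Trex1 and A930015D03Rik (r = 0.861 to 0.905). For Oasl1 the 5 genes were others, namely Notch4 (r = 0.987), Tgm5, Lgals9, Ptprh and 9130017N09Rik (r = 0.979).

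**Figure D4:**
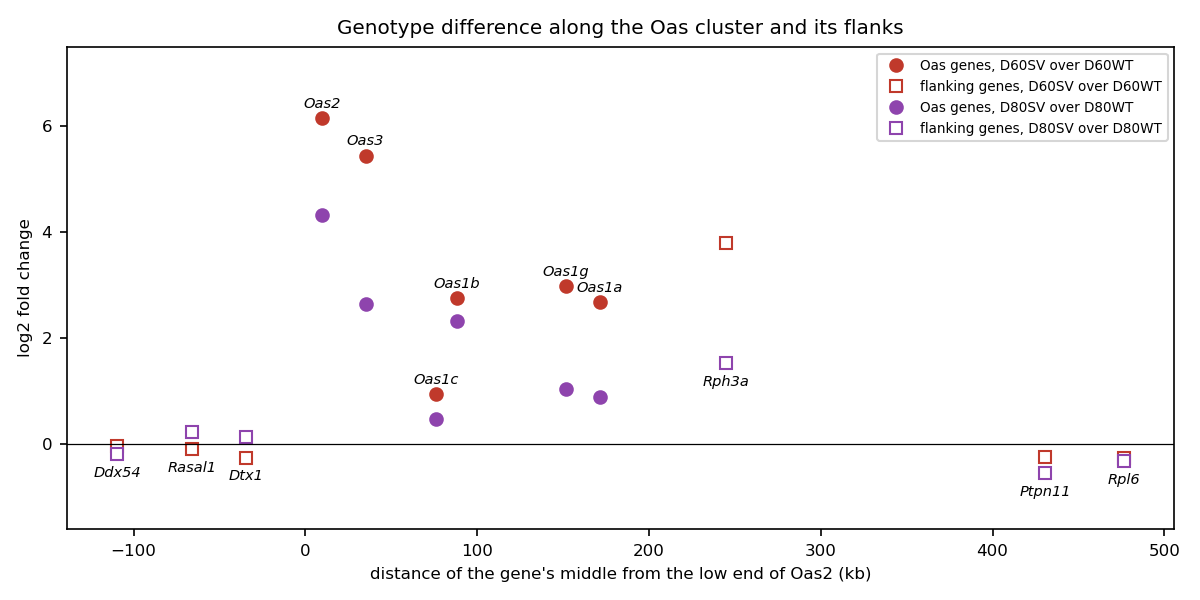
Log2 fold change of transgenic over wild-type pylorus at D60 and D80 for the 6 tested Oas genes (filled) and the 3 nearest genes with a row on each side (open), by distance of the gene's middle from the low end of Oas2 in kilobases. The Oas genes reach 6.16 for Oas2, and of the flanking genes at D60 none was called; Rph3a, at 3.80, was at most 0.569 CPM in D60SV.

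None of the 6 genes that flank the Oas cluster was called at D60, where 3.66% of all genes were higher and 0.241% lower. Below it, Ddx54 had a log2 fold change of -0.03, Rasal1 of -0.09 and Dtx1 of -0.25, and above it Ptpn11 had -0.23 and Rpl6 -0.25. Rph3a, next to the cluster, was near the floor, at a mean of 0.302 CPM in D60SV and 0.0157 CPM in D60WT, and its value of 3.80 (SE 1.09, adjusted p = 0.09) was not called. The flanking genes of the Oasl cluster, Ankrd13a, 1500011B03Rik, 2210016L21Rik and Sppl3 among them, had values of -0.20 to 0.14 at D60 and none was called, and 4930519G04Rik had 0 counts. At D80, 3 flanking genes were called: Ptpn11 (-0.55, adjusted p = 0.0035), 1500011B03Rik (1.0, adjusted p = 0.0045) and Sppl3 (-0.31, adjusted p = 0.03). Over all genes at D80, 19.4% were higher and 22% lower.

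The other genes of the pathway were read from 8 lists, of which counts are given over all tested members. For comparison, 3.66% of all genes were higher and 0.241% lower at D60, and 19.4% were higher and 22% lower at D80. In D80SV against D60SV, 17.7% were higher and 18% lower. Where a list has a single call in a direction at D80, that is close to or below the share over all genes. The interferon genes themselves were close to absent. Of the 19 interferon rows only Ifne, an epithelial interferon, passed the filter, and it was not called at either age, with 0.736 ± 0.0634 CPM in D60SV and 0.501 ± 0.108 CPM in D60WT. Over all 12 libraries, Ifnb1 had 1 count, Ifng 7, Ifnz 5, and the listed Ifna and Ifnl rows 0.

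Of 9 interferon receptor and kinase genes, 0 were called at D60, with a median log2 fold change of -0.06. At D80, 1 was higher and 5 lower: Ifnar2, a chain of the type I receptor, was higher at 0.95 (adjusted p = 0.014), and Il10rb, a chain of the type III receptor, was lower at -0.59 (adjusted p = 0.0049). The D80 count of 6 fell to 1 without D80SV replicate 3, to 2 without D80WT replicate 2, D80WT replicate 3 or D80SV replicate 2, to 2 with only these groups in the fit and to 3 with limma-voom. With no composition factor, 2 were higher and 0 lower.

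Of 8 STAT and IRF factors, 3 were higher at D60 and 0 lower. These were Irf9 (57.5 ± 4.80 CPM in D60SV and 15.6 ± 3.12 CPM in D60WT, log2 fold change 1.88, adjusted p = 6.8e-05), Stat2 (1.72, adjusted p = 0.00064) and Irf7 (3.52, adjusted p = 0.00088). At D80 the same 3 genes were higher, at 0.73 for Irf9, 0.60 for Stat2 and 1.77 for Irf7, and Irf2, a repressor at these elements, was lower at -0.31 (adjusted p = 0.036). The D80 count of 4 fell to 2 without D80WT replicate 2 or D80SV replicate 3.

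Of 11 genes listed as sensors and effectors of double-stranded RNA, 5 were higher at D60 and 0 lower. The list also holds Tlr7, a receptor for single-stranded RNA, and Tlr9, a receptor for DNA. Dhx58, the LGP2 helicase, had 36.1 ± 5.58 CPM in D60SV and 3.71 ± 1.29 CPM in D60WT (3.28, adjusted p = 0.00016). Ifih1, the MDA5 sensor, had 80.0 ± 14.6 CPM in D60SV and 22.1 ± 2.06 CPM in D60WT (1.86, adjusted p = 0.0019), and Ddx58, the RIG-I sensor, had 38.7 ± 2.92 CPM in D60SV and 12.7 ± 3.75 CPM in D60WT (1.60, adjusted p = 0.002). The others were Zbp1 (3.18, adjusted p = 0.0033) and Eif2ak2, the kinase PKR (0.93, adjusted p = 0.0066). At D80, 4 were higher. These were Dhx58, Zbp1 and the receptors of other nucleic acids, Tlr7 (1.87, adjusted p = 0.0092) and Tlr9 (2.25, adjusted p = 0.017). Mavs, the adaptor of Ifih1 and Ddx58, was lower at -0.83 (adjusted p = 0.00057). Ifih1 was at 0.05 (adjusted p = 0.9) and Ddx58 at 0.32 (adjusted p = 0.3) at D80. The D80 count of 5 fell to 3 without D80WT replicate 2 or D80SV replicate 3.

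Of 6 tested genes around 2-5A turnover and related RNA and nucleotide enzymes, 1 was higher at D60, Samhd1, a dNTP hydrolase (1.35, adjusted p = 0.02), and 0 were lower. This count became 0 without D60SV replicate 3 or any 1 of the D60WT libraries. Pde12, which degrades 2-5A, was at -0.18 at D60 (adjusted p = 0.73), and Abce1, a ribosome recycling factor, at -0.19 (adjusted p = 0.66). At D80, 0 of the 6 were called by edgeR, with 1 at an unadjusted p under 0.05. Without D80WT replicate 1 or D80SV replicate 1, 1 was lower and 0 higher. Without D80WT replicate 3, 1 was higher and 1 lower.

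Of the 5 genes of the cGAS and STING list, which senses DNA with an enzyme related in fold to the OAS proteins, 0 were called at D60 and 1 of 5 was higher at D80, a share close to the 19.4% of all genes. Mb21d1, the cGAS gene, had 6.44 ± 0.632 CPM in D80SV and 2.09 ± 0.786 CPM in D80WT (1.62, adjusted p = 0.00081), and Tmem173, which encodes STING, was at 0.75 (adjusted p = 0.15). At D80, 2 were higher and 0 lower without D80WT replicate 1, and 1 was higher and 1 lower without D80WT replicate 2. At D60, 2 of 6 feedback inhibitors were higher, Usp18 (4.21, adjusted p = 8.4e-05), which removes Isg15 from proteins and blocks the type I receptor, and Isg15 (3.82, adjusted p = 0.0024), a ubiquitin-like modifier. At D80 both were higher, at 2.30 for Usp18 and 1.85 for Isg15, and Cish, a brake on cytokine receptors, was lower at -1.12 (adjusted p = 0.0017). With no composition factor the D80 count of 3 was 6, with 5 higher and 1 lower.

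Of 16 interferon-induced genes outside the family, 12 were higher at D60 and 0 lower, with a median log2 fold change of 2.32. Bst2, which tethers virions to the cell, had 71.2 ± 12.7 CPM in D60SV and 10.6 ± 1.21 CPM in D60WT (2.74, adjusted p = 1.5e-05), and Rtp4 had the largest value of the list at 3.94 (adjusted p = 0.00011). At D80, 8 were higher and 1, Tor3a, was lower (-0.69, adjusted p = 0.028), with a median of 1.02. The Oas2 value exceeded that of every gene in these lists at both ages, at 6.16 and 4.33. In D80SV against D60SV, 1 of the 16 was higher, Ifit2 (0.90, adjusted p = 0.019), and 9 were lower, and this count of 10 fell to 4 to 6 without D60SV replicate 1, D60SV replicate 3, D80SV replicate 1 or D80SV replicate 2. With sex as a covariate, 2 of the 16 were called at D60, and over all lists 4 genes were called at D60 in place of 23.

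**Figure D5:**
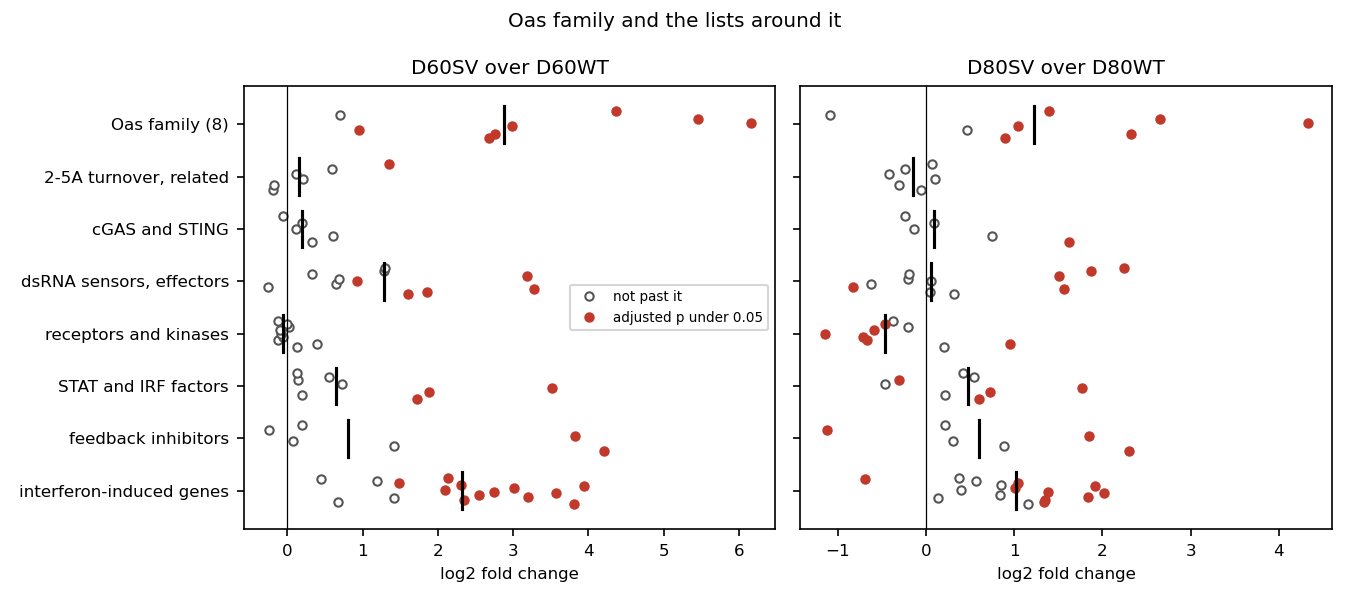
Log2 fold change of transgenic over wild-type pylorus for the 8 family members and each tested gene of 7 lists, at D60 (left) and D80 (right); the scales of the panels differ, filled points passed an adjusted p of 0.05 and bars are medians. The family median was 2.87 at D60 and 1.22 at D80, next to 2.32 and 1.02 for the interferon-induced genes and -0.06 and -0.47 for the receptors and kinases.

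Markers of other cell types moved with genotype, chiefly at D80. The 6 neuroendocrine markers summed to 4242 to 5808 CPM in D60SV and 282 to 410 CPM in D60WT, and to 24590 to 36900 CPM in D80SV and 480 to 522 CPM in D80WT, and 6 of 6 were higher at both ages. The 5 macrophage markers with a row summed to 57.1 to 134 CPM in D60SV and 26.6 to 77.7 CPM in D60WT, with 0 called, and to 217 to 293 CPM in D80SV and 72.6 to 116 CPM in D80WT, with 5 higher. The 5 plasmacytoid dendritic cell markers, a cell type known for interferon secretion, summed to 131 to 171 CPM in D60SV and 78.3 to 97.2 CPM in D60WT. Of these 1 was called at D60, Bst2, which is itself interferon-induced and is in the list above, whereas Siglech, a defining marker, was at most 0.167 CPM in D60SV and 0.188 CPM in D60WT. At D80 the list summed to 125 to 148 CPM in D80SV and 94.8 to 105 CPM in D80WT, and 2 of 5 were higher. Siglech was among them, at 1.03 ± 0.432 CPM in D80SV and 0.262 ± 0.204 CPM in D80WT (log2 fold change 1.99, adjusted p = 0.034), and it was also higher in D80SV than in D60SV (3.56, adjusted p = 0.0057). T and NK cell markers summed to 2.56 to 6.34 CPM in D60SV and 0.741 to 3.11 CPM in D60WT. At D80 they summed to 13.1 to 17.4 CPM in D80SV and 2.235 to 33.8 CPM in D80WT, with 1 of 6 tested higher. At D80 the 5 neutrophil markers summed to 14.1 to 133 CPM in D80SV and 0.971 to 2.08 CPM in D80WT, with 5 of 5 higher, and smooth muscle and surface mucous markers were lower in D80SV, 4 of 4 and 5 of 5. The part of these cell types in the family's differences was not tested. In D80SV against D60SV, 6 of 6 neuroendocrine and 4 of 5 macrophage markers were higher, and 5 of 5 surface mucous and 4 of 4 smooth muscle markers were lower. Also higher were 5 of 5 neutrophil, 3 of 3 B cell, 3 of 3 endothelial and 3 of 4 fibroblast markers. So were 3 of 6 pancreatic acinar, 2 of 6 tested T and NK and 1 of 3 tuft markers. Of 3 gland mucous markers, 1 was lower. The plasmacytoid dendritic list had 1 higher and 1 lower, and 0 of 7 duodenal enterocyte markers were called. In the same comparison, 7 of 8 members of the family were lower, while 17.7% of all genes were higher and 18% lower.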

How the data were processed

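RNA of whole pylori (Qiagen kit) went into stranded Illumina mRNA libraries, per the labels' protocols. The authors deposited raw counts per gene symbol and a normalized signal table of 15465 genes. Per the submitters' processing notes, the build was mm10 and the tools were edgeR 3.16.5, STAR 2.5.3a and HTSeq 0.9.1. Their roles, the annotation and the counting's strand setting are not given in the sources. In the deposited normalized signal, 100% of values gave whole counts at a tolerance of 0.01 of a count, equal to the raw counts in the 15442 genes matched by name. The count test on these recovered counts, added after seeing the data, called 597 genes at D60 and 6344 at D80.

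The raw counts were fitted with edgeR 4.0.16 under R 4.3.3 (filterByExpr with the 4 groups, TMM factors of 0.805 to 1.30, 1 coefficient per group, quasi-likelihood test, 8 residual degrees of freedom), with Benjamini-Hochberg adjustment across the 15369 genes kept, which hold 99.975% of the counts. The biological coefficient of variation was 24.2%. No sample column was left unused. Levels per kilobase are CPM over the union of a gene's exons. Intervals and floors cover counting error or the spread between libraries only, and labels name no molecular identifiers. Simulated counts with known changes were used to test the fit. No 2 libraries of the same group agreed within sampling noise (chi-square per degree of freedom 24.2 to 373). Alternatives were other scaling factors and filters, DESeq2 1.42.0, limma-voom (limma 3.58.1), limma on log2 of the normalized signal plus 0.5, only the 2 groups compared, a replicate block, sex as a covariate, the longer motif, transcript length and leaving out each library. Members, lists and alternatives were chosen with earlier results of these data known. Named genes were all 8 members, at most 4 genes with the smallest p per list and comparison, fixed pathway genes, the 5 genes most like each member and the 3 nearest neighbours on each side of a cluster; Siglech, Abce1, Pde12 and the most changed or opposite list members were named after their values were seen. Some genes that these rules name are not reported here, and the lists and their counts are given without them.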

Additional observations from a re-analysis of the deposited data

Results flagged for a closer look

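The genotype difference was called as unlike at the 2 ages in 4 members, all lower, by the interaction term of the edgeR quasi-likelihood fit. Over all genes, 2.77% were higher and 2.23% lower by this term. Age and sex cannot be told apart in this term, since genotype and sex coincide at D60 but not at D80. Oas1g had a log2 difference between transgenic and wild-type libraries of 2.99 at D60 and 1.04 at D80, an interaction of -1.95 (95% interval -2.58 to -1.33, adjusted p = 0.00746). Oas2 had 6.16 at D60 and 4.33 at D80, an interaction of -1.82 (95% interval -2.48 to -1.16, adjusted p = 0.0109). Oas1a had 2.68 at D60 and 0.90 at D80, an interaction of -1.78 (95% interval -2.47 to -1.09, adjusted p = 0.0129), and it shares much of its sequence with Oas1g. Oasl2 had 4.36 at D60 and 1.40 at D80, an interaction of -2.95 (95% interval -4.47 to -1.44, adjusted p = 0.0355). With sex as a covariate, the 4 values were -1.56 for Oas1g (adjusted p = 0.16), -1.11 for Oas2 (adjusted p = 0.22), -1.42 for Oas1a (adjusted p = 0.24) and -2.23 for Oasl2 (adjusted p = 0.41). This covariate rests on D80SV replicate 1 alone. With limma-voom, Oas2 (adjusted p = 0.065) and Oasl2 (adjusted p = 0.062) missed the threshold. The Oasl2 call was also lost when most single libraries were left out, at adjusted p = 0.051 to 0.11.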

How the results depend on the processing

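Of 960 values of single members recomputed under the alternatives, 881 kept their direction and their side of the threshold, 44 lost the call, 8 gained one and 27 changed sign, 26 of these in the wild-type age comparison, where no member was called, and 1 for Oas1b. The cause of these changes was not tested. With sex as a covariate, calls numbered 85 genes at D60 (599 before), 99 for the interaction (768 before) and 1 for wild-type age (0 before); members called were 3 at D60, 4 between transgenic ages and 0 for the interaction, and list genes were 4 at D60 (23 before) and 0 for the interaction (7 before). The interaction of Oas1b was then 0.12. This covariate rests on D80SV replicate 1, the only library whose sex transcripts differed from those of its group. DESeq2 called 992 genes at D60, 254 for wild-type age, and 1745 genes and 18 list genes for the interaction. For the interaction, limma-voom called 423 genes, 2 members and 4 list genes, limma on the normalized signal 1320 genes and 13 list genes, upper-quartile factors 5 list genes and no composition factor 2. With only the 2 groups compared, 5 genes were called for wild-type age.

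Leaving out 1 library at a time, members called were 6 to 7 at D60, 5 to 6 at D80, 4 to 7 between transgenic ages, 0 to 0 between wild-type ages and 3 to 6 for the interaction. Over all genes the ranges were 381 to 736, 4400 to 6994, 3513 to 6520, 0 to 402 and 195 to 2429 in the same order, and over list genes 19 to 27, 16 to 32, 17 to 38, 0 to 1 and 0 to 32. In the wild-type age comparison, leaving out libraries gave -0.12 to 0.31 for Oas1a, -0.62 to 0.11 for Oas1b, -0.22 to 0.22 for Oas1g, -0.22 to 1.45 for Oas3 and -0.45 to 0.48 for Oasl1. In that comparison, Oas1g was also -0.02 with DESeq2 size factors, upper-quartile factors, DESeq2, only the 2 groups compared and the replicate block, -0.04 with limma-voom, -0.03 with limma on the normalized signal and -0.29 with sex; Oas1a was 0 with limma-voom and -0.21 with sex; and Oasl1 was 0 with upper-quartile factors and -0.25 with both limma fits.

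Replicate numbers did not pair the libraries: deviations from group means correlated at -0.004 on average over 18 pairs of equal number (-0.344 to 0.393, 6 of them over 0.1). With the replicate block, 7, 6, 7, 0 and 4 members were called in the order above, as without it, and 611 genes at D60. No composition factor moved the median of all genes by 0.108 at D60, 0.414 at D80, 0.365 between transgenic ages and 0.305 for the interaction, and upper-quartile factors moved it by 0.159 at D80; no called member changed sign under any scaling. Oas1b and Oas3 in wild-type libraries rest on few counts, which limits the precision of their differences.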
